A study of Mus musculus with 6 samples.

Results

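Galectins and annexins were followed as a set of 10 genes in mouse submandibular salivary gland organoids (mSGOs): the galectins *Lgals1*, *Lgals3*, *Lgals7*, *Lgals8* and *Lgals9*, and the annexins *Anxa1*, *Anxa2*, *Anxa3*, *Anxa5* and *Anxa8*. The set is a list of gene names with no rule on measured values, although earlier results of these data were known when it was chosen, and it makes up 10 of the 47643 gene IDs in the count tables. All 10 names matched an Ensembl ID through the GENCODE mouse annotation, and all 10 passed the filter on low counts. mSGOs are cultures of epithelial cells that form small bodies in Matrigel, here after dissociation of primary spheres grown from the gland. Every library came from untreated, non-irradiated material of C57BL/6 mice aged 8 to 12 weeks. All cultures received WRY medium, made with conditioned media that supply Wnt3a and R-spondin1, and with EGF, FGF2, N2, insulin, the glucocorticoid dexamethasone and the ROCK inhibitor Y27632. From each of 3 mice, 1 library was prepared at day 5 of culture and 1 at day 7, so each day held 3 libraries. The comparison asked how galectin and annexin RNA differed between the days.

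Galectins are small proteins that bind β-galactoside sugars on glycoproteins and glycolipids. They leave the cell without a signal peptide, cross-link glycoproteins at the cell surface and, inside the cell, attach to sugars exposed on broken endosomes and lysosomes. Annexins bind acidic phospholipids when calcium rises and take part in membrane trafficking and in the resealing of damaged membranes, often together with small S100 proteins. In lining epithelia both families are abundant, and *Lgals7* is known from stratified epithelium. The study counts *Lgals7* among the markers of myoepithelial-like cells, which it describes in mSGOs older than those compared here.

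The sequences before the transcription start are shown for the 3 galectins that were higher at day 7 and for *Anxa2*, the member with the highest level. Start sites were taken from RefSeq (GRCm38.p6), in which 8 of the 10 members had an entry, and the 250 bases before each start were located on GRCm39 by exact match. *Lgals1* and *Anxa3* had no entry. Only the part of each window that lies outside annotated exons is printed, from 5′ to 3′ on the strand of the gene. The stretches are chr7:28563561-28563653 on the plus strand for *Lgals7*, chr13:12476620-12476869 on the minus strand for *Lgals8*, chr11:78875799-78876000 on the minus strand for *Lgals9* and chr9:69360715-69360901 on the plus strand for *Anxa2*. Capitals mark matches to 4 promoter motifs on either strand, namely the TATA box (TATAAA), the CCAAT box (CCAAT, read as ATTGG on the opposite strand), the GC box (GGGCGG) and the AP-1 motif (TGACTCA, read as TGAGTCA on the opposite strand).
*Lgals7*: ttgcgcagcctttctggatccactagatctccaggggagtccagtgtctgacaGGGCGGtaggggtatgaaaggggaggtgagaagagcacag
*Lgals8*: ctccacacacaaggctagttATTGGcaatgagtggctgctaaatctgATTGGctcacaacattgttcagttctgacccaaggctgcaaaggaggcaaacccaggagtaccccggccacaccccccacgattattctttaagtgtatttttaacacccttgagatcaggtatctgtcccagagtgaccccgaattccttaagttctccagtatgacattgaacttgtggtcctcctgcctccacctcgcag
*Lgals9*: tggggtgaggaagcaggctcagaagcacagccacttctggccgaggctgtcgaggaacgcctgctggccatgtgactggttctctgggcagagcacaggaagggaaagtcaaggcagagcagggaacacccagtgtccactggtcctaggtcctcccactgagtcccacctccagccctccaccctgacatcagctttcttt
*Anxa2*: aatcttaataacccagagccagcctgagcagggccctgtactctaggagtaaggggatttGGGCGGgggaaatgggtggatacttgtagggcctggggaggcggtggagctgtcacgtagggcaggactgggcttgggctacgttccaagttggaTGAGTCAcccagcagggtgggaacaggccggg

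None of the 4 motifs occurred in the windows of all 3 galectins that were higher at day 7. The *Lgals7* window held a GC box whose first base lay 197 bases before the start. The *Lgals8* window held CCAAT boxes 230 and 203 bases before a start that lies 3221 bases inside the annotated gene. The *Lgals9* window held none of the 4 motifs. By the GENCODE gene bounds, the start used lay 1468 bases inside the gene for *Lgals7*, 48 for *Lgals9* and 423 for *Anxa2*. The printed *Lgals7*, *Lgals8* and *Anxa2* stretches thus lie within the annotated gene. The *Anxa2* window held GC boxes 190, 48 and 24 bases before the start, an AP-1 motif at 95 and a TATA box at 17. Its matches at 48, 24 and 17 lie past the printed part. Among the other members, *Anxa1* had a TATA box at 32 bases and *Lgals3* a CCAAT box at 167 and a GC box at 7. *Anxa5* and *Anxa8* had no match. The starts of *Lgals3*, *Anxa1* and *Anxa5* lay 6109, 339 and 90 bases inside the gene. Among 32851 RefSeq promoters of the same length, 12.4% held the TATA box, 33.8% the CCAAT box, 32.7% the GC box and 4.46% the AP-1 motif. The matches describe letters and were not measured as binding sites.

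The libraries held 1918198 to 2837397 counts in genes. Libraries of the same day differed less at day 5 than at day 7, with a chi-square per degree of freedom of 1.99 to 3.25 between pairs at day 5 and 12.3 to 19.9 at day 7. Reads assigned to no gene took 13.7% to 14.4% of entries at day 5 and 9.12% to 9.74% at day 7, and the part of this difference in the results was not tested. Epithelial markers were high throughout, with a summed level of 14500 to 18270 CPM (counts scaled to a library of 1000000) at day 5 and 11940 to 16210 CPM at day 7. Of 12 macrophage markers, 9 were at 0 in every library, *Csf1r*, *Adgre1* and *Lyz2* among them. The macrophage sum was 0.360 to 1.65 CPM at day 5 and 3.84 to 6.85 CPM at day 7, nearly all of it from *Cd68*. Fibroblast markers summed to 10.3 to 17.6 CPM at day 5 and 24.5 to 26.0 CPM at day 7, mainly *Fbln1*, with 4 of 12 at 0 in every library, *Col1a2* and *Col3a1* among them. Endothelial markers summed to 12.3 to 14.1 CPM and 13.2 to 27.4 CPM, with 3 of 10 at 0, *Cdh5* among them. Acinar markers summed to 6.03 to 10.5 CPM and 10.4 to 35.3 CPM, mainly *Aqp5* and *Pip*, with 3 of 8 at 0, so the defining genes of saliva-producing cells were low or at 0 in these cultures. The part of these low marker levels in the results below was not tested.

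Between day 5 and day 7, *Lgals7*, *Lgals8* and *Lgals9* rose, while none of the 5 annexins passed the threshold. A gene was called past the threshold when its edgeR adjusted p was under 0.05 and its absolute log2 fold change was over 0.6. By this rule 3 of the 10 members were called, all 3 higher at day 7 and all 3 galectins, against a background of 12.0% of the 15792 genes tested in either direction, 7.22% higher and 4.82% lower. Among the 9686 genes with a mean level at or above that of the lowest member, 17% were called. Only the *Lgals7* call held in every alternative setting given in the methods, while the *Lgals8* and *Lgals9* calls were each lost in 9. The median log2 change from day 5 to day 7 was 0.29 over the 10 members and -0.0073 over all genes tested. In 5 members the 3 libraries of day 7 lay entirely above or below those of day 5, which also held for 30.9% of all genes tested. In bulk RNA, a change in the share of cells that express a gene and a change of RNA per cell cannot be told apart.

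**Figure D1:**
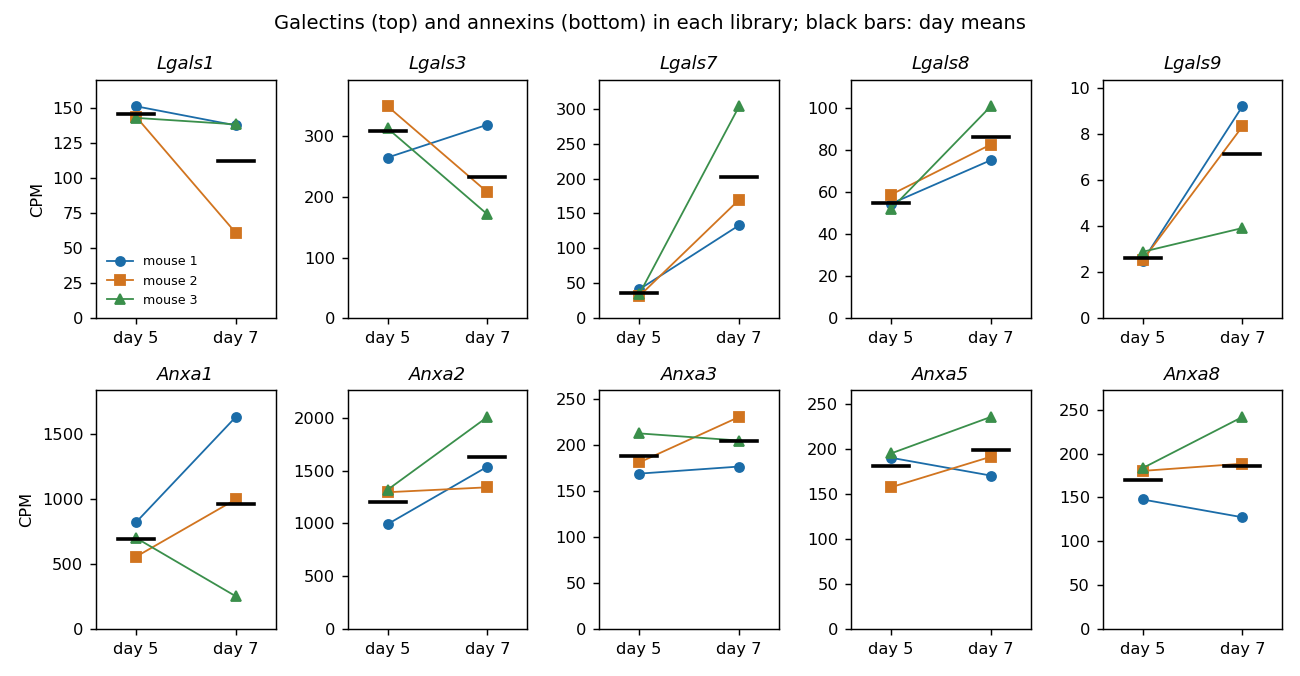
Level of each member in CPM (vertical axes, linear and starting at 0, scaled per gene) at day 5 and day 7, with a line joining the libraries of a mouse and black bars for the mean of each day (n = 3). *Lgals7* is higher at day 7 in all 3 mice, whereas *Anxa1* is higher in mice 1 and 2 and lower in mouse 3, where it is at 252 CPM.

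The order of levels placed annexins above most galectins. The CPM values count reads from transcript ends, so they were not divided by transcript length, and differences in capture between genes were not measured. At day 5, *Anxa2* led with 1202 ± 182 CPM (SD, n = 3), followed by *Anxa1* with 693 ± 133 CPM and *Lgals3* with 309.5 ± 42.5 CPM, and the libraries of these 3 genes did not overlap. *Anxa3*, *Anxa5*, *Anxa8* and *Lgals1* followed between 146 and 188 CPM, and the libraries of neighbours in this group overlapped. *Lgals8*, *Lgals7* and *Lgals9* closed the order, each without overlap with its neighbours. At day 7 the middle of the order changed, since *Lgals7* had moved up among *Lgals3*, *Anxa3*, *Anxa5* and *Anxa8*, whose means lay between 186 and 233 CPM and whose libraries overlapped. *Anxa1* and *Anxa2* also overlapped at day 7, because the *Anxa1* libraries ranged from 252 to 1636 CPM.

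*Lgals7* (ENSMUSG00000053522, GRCm39 chromosome 7, 28562343 to 28565722, plus strand) encodes a galectin with a single sugar-binding domain. It measured 41.2, 31.6 and 34.2 CPM at day 5 and 133, 169.8 and 304 CPM at day 7 in mice 1, 2 and 3. All day 7 libraries lay far above all day 5 libraries, although mouse 3 was well above the other two at day 7. Means of 35.7 ± 4.97 and 202 ± 89.7 CPM (SD, n = 3) gave a 5.63-fold rise and a log2 change (day 7 over day 5) of 2.49 ± 0.27 (SE, edgeR adjusted p = 8.64e-06). Its unadjusted p ranked 54 among all genes tested. Within mice, the log2 difference was 1.67, 2.39 and 3.12. The call held in each of the 16 alternative settings, with log2 fold changes of 2.08 to 2.72, the lowest of them without the day 7 library of mouse 3. The other genes that the study lists for myoepithelial-like cells of older mSGOs, added here after their values were seen, are *Sparc*, *Csrp1* and *Trp63*. *Sparc* was at 58.2 to 73.5 CPM at day 5 and at 311, 366 and 542 CPM in mice 1, 2 and 3 at day 7 (log2 change 2.66 ± 0.23, SE, edgeR adjusted p = 7.57e-07). *Csrp1* was at 26.8 to 39.2 CPM at day 5 and at 76.3, 93.7 and 140.0 CPM at day 7 (1.62 ± 0.25, SE, edgeR adjusted p = 0.000274). These 2 genes had the same order of mice at day 7 as *Lgals7*. *Trp63* had the opposite order, with 181, 130 and 76.9 CPM in mice 1, 2 and 3 at day 7, beside 82.5 to 107 CPM at day 5. Its days overlapped (log2 change 0.45 ± 0.25, SE, edgeR adjusted p = 0.271). The part of such cells in the *Lgals7* rise was not tested. Raw counts of 63 to 100 at day 5 and 347 to 620 at day 7 lay well above the limit of 3 counts that an observed 0 allows.

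*Lgals8* (ENSMUSG00000057554, chromosome 13, 12454282 to 12479840, minus strand) encodes a galectin with a pair of sugar-binding domains, known for marking ruptured vesicles for autophagy. Its level was 54.4, 58.7 and 51.9 CPM at day 5 and 75.2, 82.6 and 101 CPM at day 7. The days did not overlap, and each mouse was higher at day 7. The means were 55.02 ± 3.47 and 86.2 ± 13.2 CPM (SD, n = 3), and the log2 change was 0.65 ± 0.20 (SE, edgeR adjusted p = 0.0435), close to the minimum fold change and to the p limit. The call was lost in 9 of 16 alternatives, while the direction held in all 16. The adjusted p was 0.0872 with library totals as scaling in edgeR, 0.0579 with the upper quartile, 0.0524 with limma voom and 0.645 with glmTreat, which tests against the minimum fold change. Leaving out day 5 replicate 1, 2 or 3 gave edgeR adjusted p of 0.160, 0.136 and 0.202, leaving out day 7 replicate 2 gave 0.0837, and without day 7 replicate 3 the log2 change of 0.52 fell below the minimum.

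*Lgals9* (ENSMUSG00000001123, chromosome 11, 78853800 to 78875798, minus strand) is the other member with a pair of sugar-binding domains and encodes a known ligand of the receptor TIM-3. It was the rarest member, with 2.47, 2.51 and 2.88 CPM at day 5 and 9.21, 8.33 and 3.92 CPM at day 7. The days did not overlap, but mouse 3 at day 7 stood close to the day 5 values. These levels rest on counts of 6, 5 and 8 at day 5 and of 24, 24 and 8 at day 7. From 2.62 ± 0.226 to 7.15 ± 2.84 CPM (SD, n = 3), the log2 change was 1.45 ± 0.45 (SE, edgeR adjusted p = 0.0416). The call was lost in 9 of the 15 alternatives that kept the gene, and the stricter edgeR filter (filterByExpr) removed it. With DESeq2 the adjusted p was 0.114, with limma voom 0.0784, and in edgeR with library totals 0.0555 and with glmTreat 0.168. Without day 5 replicate 1, 2 or 3 the edgeR adjusted p was 0.152, 0.148 and 0.135, and without day 7 replicate 1 or 2 it was 0.0964 and 0.147. The macrophage sum given above moved in the same direction as *Lgals9* between the days. *Cd68*, which made up nearly all of it, was at 3.07, 5.90 and 6.85 CPM in mice 1, 2 and 3 at day 7. This order of mice is opposite to that of *Lgals9*. The part of the macrophage sum in the rise was not tested. *Havcr2*, the gene for TIM-3, had 5 counts at day 5 and 14 at day 7 over 3 libraries each.

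**Figure D2:**
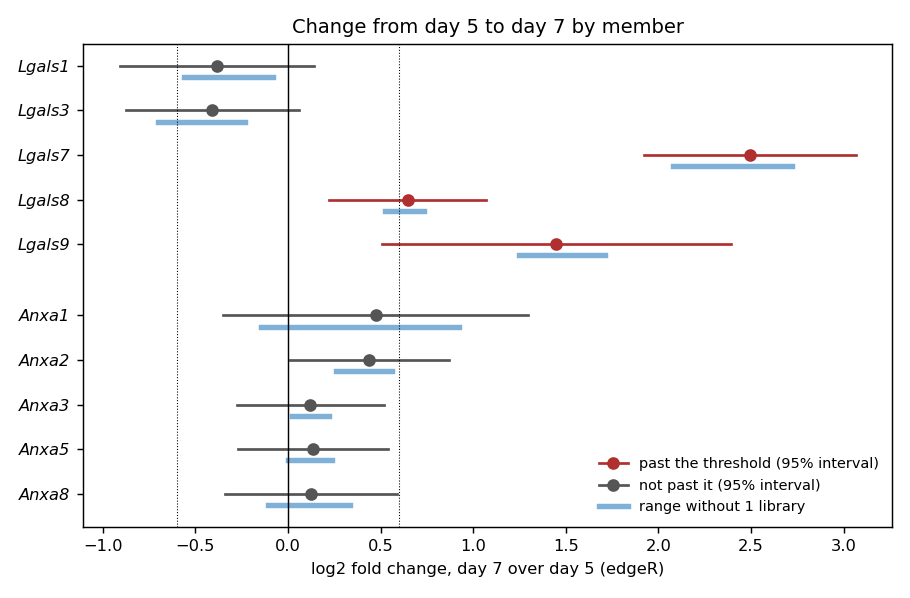
Log2 fold change of each member, day 7 over day 5 (horizontal axis, edgeR), with 95% intervals (thin lines), the range of the 6 fits that each leave out 1 library (blue bars) and dotted lines at the minimum fold change of 0.6. *Lgals7*, *Lgals8* and *Lgals9* are past the threshold (red), and the *Anxa1*, *Anxa5* and *Anxa8* ranges cross 0.

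*Lgals3* and *Lgals1* were lower on average at day 7, and neither passed the threshold. *Lgals3* (ENSMUSG00000050335, chromosome 14, 47605208 to 47623624, plus strand) encodes the chimera-type galectin, which forms oligomers through its N-terminal part. Its values were 265, 350.0 and 313 CPM at day 5 and 319.5, 208 and 171 CPM at day 7. Mice 2 and 3 were lower at day 7 and mouse 1 was higher, so the days overlapped. Means of 309.5 ± 42.5 and 233 ± 77.2 CPM (SD, n = 3) gave a log2 change of -0.41 ± 0.22 (SE, edgeR adjusted p = 0.261). The result depended on mouse 1: without its day 7 library the log2 change was -0.70 (edgeR adjusted p = 0.0166), past the threshold.

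*Lgals1* (ENSMUSG00000068220, chromosome 15, 78810875 to 78814670, plus strand) encodes a dimeric galectin with a single sugar-binding domain. It measured 151, 144 and 143 CPM at day 5 and 137, 60.8 and 138 CPM at day 7. All day 7 values lay below day 5, but mice 1 and 3 did so by a small margin and mouse 2 alone was far lower. The log2 change was -0.38 ± 0.25 (SE, edgeR adjusted p = 0.357), with a 95% interval of -0.91 to 0.14. Leaving out single libraries gave -0.56 to -0.082, and no alternative brought it past the threshold.

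The make-up of the galectin set therefore differed between the days while its sum overlapped. The 5 galectins together held 514 to 586 CPM at day 5 and 529 to 718 CPM at day 7. Within that sum, *Lgals7* took 8.02%, 5.39% and 6.28% at day 5 and 19.7%, 32.1% and 42.3% at day 7. *Lgals3* took 51.6%, 59.7% and 57.5% at day 5 and 47.4%, 39.3% and 23.9% at day 7. Every day 7 library thus had a larger *Lgals7* share and a smaller *Lgals3* share than every day 5 library, and in mouse 3 at day 7 the *Lgals7* share exceeded that of *Lgals3*. The *Lgals1* share did not overlap either, with 24.5% to 29.4% at day 5 and 11.5% to 20.4% at day 7. Shares of the same sum depend on each other, so a larger *Lgals7* share lowers the others. In mouse 1, *Lgals3* went from 265 CPM at day 5 to 319.5 CPM at day 7 while its share fell. These shares were not tested.

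**Figure D3:**
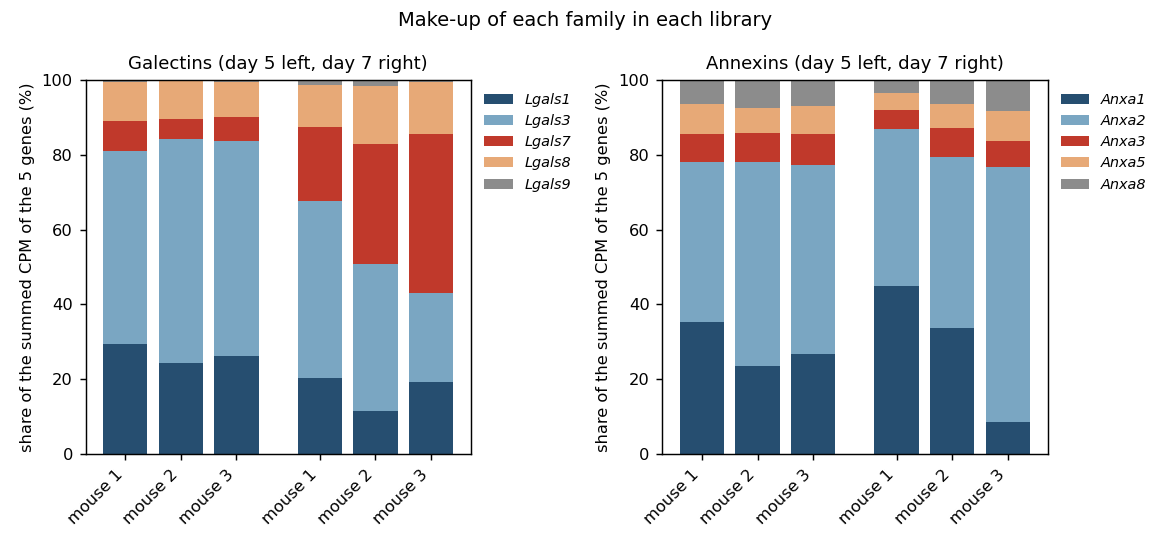
Share of each gene in the summed CPM of the 5 galectins (left) and of the 5 annexins (right), in percent, for each library, with day 5 in the left and day 7 in the right group of bars. *Lgals7* (red, left panel) takes at most 8.02% at day 5 and at least 19.7% at day 7, and *Anxa1* (dark blue, right panel) takes 8.55% in mouse 3 at day 7.

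Among the annexins, *Anxa1* varied most. *Anxa1* (ENSMUSG00000024659, chromosome 19, 20350792 to 20368374, minus strand) is a glucocorticoid-induced gene whose protein acts on formyl peptide receptors. It measured 821, 556 and 703 CPM at day 5 and 1636, 999 and 252 CPM at day 7. Mice 1 and 2 were higher at day 7 and mouse 3 was lower, with within-mouse log2 differences of 0.99, 0.84 and -1.48. The highest day 7 library exceeded the lowest 6.50-fold, against 1.48-fold at day 5. The coefficient of variation was 19.1% at day 5 and 72.0% at day 7, and the latter lay at percentile 99.3 of 3409 genes whose mean reached 50 CPM. The median of those genes was 8.14% at day 5 and 20.0% at day 7. Means of 693 ± 133 and 962 ± 693 CPM (SD, n = 3) gave a log2 change of 0.47 ± 0.39 (SE, edgeR adjusted p = 0.474). Single libraries decided its direction and call: it was -0.15 (edgeR adjusted p = 0.826) without day 7 replicate 1 and 0.92 (edgeR adjusted p = 0.00431) without day 7 replicate 3.

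*Anxa2* (ENSMUSG00000032231, chromosome 9, 69360542 to 69399077, plus strand) encodes the annexin that pairs with S100A10 at the plasma membrane and binds plasminogen. It measured 992, 1295 and 1319 CPM at day 5 and 1538, 1342 and 2009 CPM at day 7. The days did not overlap and all mice were higher at day 7, although mouse 2 moved by only 0.051 on the log2 scale. Means of 1202 ± 182 and 1629.9 ± 343 CPM (SD, n = 3) gave a log2 change of 0.44 ± 0.20 (SE, edgeR adjusted p = 0.181), with a 95% interval of 0.011 to 0.87. It was below the minimum fold change in every alternative, with a range of 0.26 to 0.56.

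*Anxa3*, *Anxa5* and *Anxa8* showed small differences whose intervals included 0. *Anxa3* (ENSMUSG00000029484, chromosome 5, 96940544 to 96993828, plus strand) went from 169, 181 and 213 CPM to 177, 231 and 205 CPM, with a log2 change of 0.12 ± 0.19 (SE, edgeR adjusted p = 0.748) and a 95% interval of -0.28 to 0.52. The days overlapped, and mouse 3 was slightly lower at day 7. *Anxa5* (ENSMUSG00000027712, chromosome 3, 36503072 to 36530126, minus strand), whose protein binds phosphatidylserine and serves as a probe for dying cells, went from 191, 158 and 195 CPM to 171, 192 and 236 CPM. The days overlapped, and its log2 change was 0.14 ± 0.19 (SE, edgeR adjusted p = 0.714), with a 95% interval of -0.27 to 0.54. *Anxa8* (ENSMUSG00000021950, chromosome 14, 33807936 to 33822528, plus strand) went from 148, 180.3 and 183 CPM to 127, 189 and 242 CPM, so the 3 mice diverged at day 7 around nearly the same mean. Its log2 change was 0.12 ± 0.22 (SE, edgeR adjusted p = 0.789), with a 95% interval of -0.34 to 0.59. Without day 7 replicate 3, the value turned to -0.0023 for *Anxa5* and -0.11 for *Anxa8*, neither past the threshold.

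**Figure D4:**
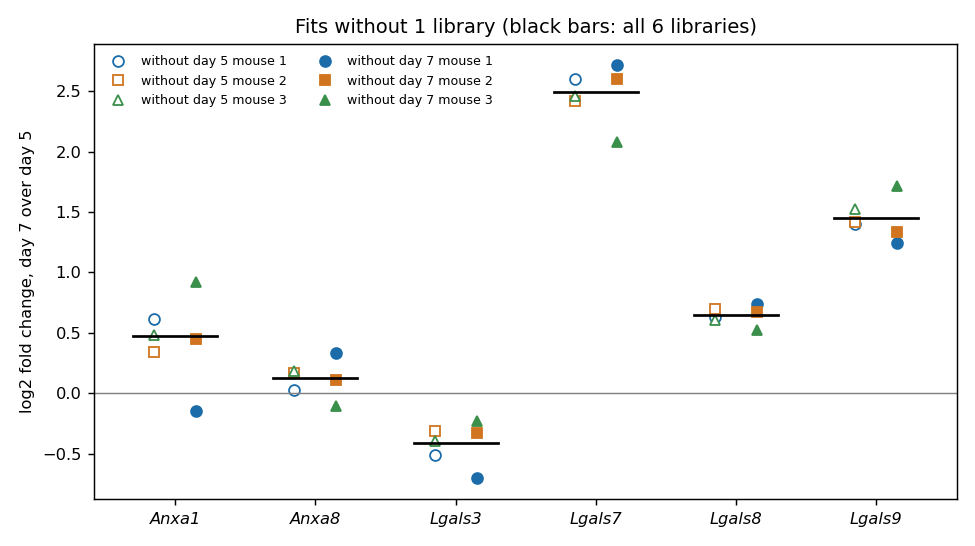
Log2 fold change (vertical axis, day 7 over day 5) of 6 members when each library is left out in turn (open symbols for day 5, filled for day 7), beside the value from all 6 libraries (black bars). *Anxa1* moves from 0.47 to -0.15 without mouse 1 of day 7 and to 0.92 without mouse 3, whereas *Lgals7* stays between 2.08 and 2.72.

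The annexin sum was 2321 to 2613 CPM at day 5 and 2944 to 3649 CPM at day 7, without overlap. *Anxa1* and *Anxa2* made up most of it, and mouse 3 at day 7 had the lowest *Anxa1* share (8.55%) beside the highest *Anxa2* share (68.3%). In the other 5 libraries the *Anxa1* share was 23.5% to 44.8% and the *Anxa2* share 42.2% to 54.6%. Mouse 3 at day 7 also had the highest *Lgals7*, *Lgals8*, *Anxa2*, *Anxa5* and *Anxa8* and the lowest *Lgals3* and *Anxa1* of all 6 libraries.

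Across the 6 libraries, which share the split between the days, *Lgals7* and *Lgals8* followed each other closely, with a Pearson's r of 0.98 on log2 CPM. Other pairs ran opposite to each other, with -0.80 between *Lgals3* and *Lgals7*, -0.86 between *Lgals3* and *Anxa5*, and -0.88 between *Anxa1* and *Anxa8*. Among 3376 protein-coding candidates whose mean reached 50 CPM, the genes most like *Lgals3* were *Srxn1* (r = 0.976), *Kars1* (r = 0.975) and the basal keratin *Krt5* (r = 0.975). *Krt5* had 5457, 6383 and 6055 CPM at day 5 and 5492, 3850 and 3373 CPM at day 7, so mice 2 and 3 were lower at day 7, as for *Lgals3*, while mouse 1 was nearly level in *Krt5* and higher in *Lgals3*. The genes most like *Anxa2* were *Naxe* (r = 0.984), *Oaz1* (r = 0.981) and *Ppm1a* (r = 0.977). With 6 libraries and 3376 candidates such values are descriptive.

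Other genes of the 2 families were read next. Of 8 other names listed with the galectins, 6 matched and 4 had enough counts to test, with a median log2 change of 0.51. Of these 4, 2 were higher and 0 lower, beside 7.22% higher and 4.82% lower among all genes tested. The 2 were the galectin-like gene *Lgalsl* and *Lgals3bp*, which encodes a binding partner and not a galectin. *Lgals3bp*, whose secreted glycoprotein is a ligand of galectin-3, measured 7.01, 7.03 and 9.73 CPM at day 5 and 23.8, 25.3 and 35.2 CPM at day 7. The days were far apart, with a log2 change of 1.80 ± 0.29 (SE, edgeR adjusted p = 0.000498) that stayed past the threshold in each of 16 alternatives. *Lgalsl*, a galectin-like gene, measured 60.2, 69.8 and 66.3 CPM at day 5 and 95.1, 143 and 99.9 CPM at day 7, a log2 change of 0.79 ± 0.21 (SE, edgeR adjusted p = 0.0182). Its call was lost in 5 alternatives, which included leaving out day 5 replicate 1, 2 or 3 (edgeR adjusted p = 0.118, 0.0848 and 0.0990) or day 7 replicate 2 (0.113). *Lgals12* had 9 counts at day 5 and 5 at day 7 in all, *Lgals4* had 4 and 5, and *Lgals2* and *Grifin* were at 0, which allows up to 1.04 to 1.51 CPM in a library.

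Of 7 other annexins, 4 were tested, with a median log2 change of 0.54. Of these 4, 0 passed the threshold, beside 12.0% of all genes tested, a share at which few calls would fall among 4 genes. At an unadjusted p under 0.05 there were 2. *Anxa4* was higher in all mice, with 76.3, 71.3 and 67.0 CPM at day 5 and 96.7, 94.4 and 131 CPM at day 7, and a log2 change of 0.58 ± 0.20 (SE, edgeR adjusted p = 0.0660). The days did not overlap, and without day 7 replicate 1 it passed the threshold with 0.65 (edgeR adjusted p = 0.0332). *Anxa6* had a log2 change of 0.49 ± 0.21 (SE, edgeR adjusted p = 0.150) and *Anxa7* one of 0.015 ± 0.23 (SE, edgeR adjusted p = 0.990). *Anxa9*, with 14 counts at day 5 and 31 at day 7 in all, had 1.07 ± 0.54 (SE, edgeR adjusted p = 0.220). *Anxa10*, *Anxa11* and *Anxa13* were at 0 in every library.

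Partners of annexins were read in the same way. Of 17 genes for S100 partners and membrane repair, 13 were tested and 0 passed the threshold in edgeR, beside 12.0% of all genes, a share at which few calls would fall among 13 genes. At an unadjusted p under 0.05 there were 2, and their median log2 change was 0.053 (0.035 for the genes with counts on both days). *S100a10*, the partner of *Anxa2* and named here after its values were seen, measured 372, 335 and 378 CPM at day 5 and 354, 378 and 408 CPM at day 7. These overlapped, with a log2 change of 0.070 ± 0.18 (SE, edgeR adjusted p = 0.854). *S100a11*, which binds *Anxa1* protein, measured 1213, 1211 and 1389.6 CPM at day 5 and 1559.9, 944 and 637 CPM at day 7, with the same order of mice at day 7 as *Anxa1*. Its log2 change was -0.28 ± 0.25 (SE, edgeR adjusted p = 0.514), and -0.68 (edgeR adjusted p = 0.0191) without day 7 replicate 1. *S100a6* was far more abundant, with 6211 ± 584 CPM at day 5 and 7494 ± 1393 CPM at day 7 (SD, n = 3), a log2 change of 0.27 ± 0.20 (SE, edgeR adjusted p = 0.409). *Chmp4b*, a subunit of the ESCRT machinery that reseals membranes, was higher in all mice with 0.43 ± 0.18 (SE, edgeR adjusted p = 0.125). *Dysf*, the gene for dysferlin, had 0 counts at day 5 and 5 at day 7. The formyl peptide receptor genes had 0 counts (*Fpr1*) and 1 count (*Fpr2*) over all 6 libraries.

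The sugars that galectins bind are built by branching and capping enzymes of N-glycans. All 16 of these genes were tested, with a median log2 change of 0.31. Of them, 1 was higher and 0 lower, beside 7.22% higher and 4.82% lower among all genes tested. *Man2a1*, a Golgi mannosidase that opens the way to complex glycans, measured 77.5, 59.2 and 56.9 CPM at day 5 and 99.3, 129.8 and 125 CPM at day 7. The days did not overlap, and the log2 change was 0.87 ± 0.21 (SE, edgeR adjusted p = 0.00874). It missed the limit with glmTreat (edgeR adjusted p = 0.289) and without day 5 replicate 2 (0.0852) or 3 (0.0916). *Mgat4a*, a branching enzyme, had 0.82 ± 0.31 (SE, edgeR adjusted p = 0.0926) and passed with the mouse as a replicate block (0.79, edgeR adjusted p = 0.0463), with no low-count filter (0.0381) and without day 7 replicate 1 (1.10, edgeR adjusted p = 0.00830). *Mgat5*, which makes the branch that galectin-3 favours, was lower in all mice with -0.45 ± 0.22 (SE, edgeR adjusted p = 0.208), and *St3gal4* had 0.56 ± 0.30 (SE, edgeR adjusted p = 0.258).

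Among 15 genes for glycoproteins that galectins bind and for sensors of lysosome damage, 14 were tested, with a median log2 change of 0.39. Of these 14, 2 were higher and 1 lower, beside 7.22% higher and 4.82% lower among all genes tested. *Bsg*, the gene for basigin, measured 139, 103 and 119 CPM at day 5 and 276, 264 and 237 CPM at day 7. It was higher in all 3 mice, with a log2 change of 1.11 ± 0.19 (SE, edgeR adjusted p = 0.000809) that stayed past the threshold in each of 16 alternatives. *Lamp2*, a glycoprotein of the lysosome membrane, had means of 234 ± 8.95 CPM at day 5 and 376 ± 42.2 CPM at day 7 (SD, n = 3), a log2 change of 0.69 ± 0.18 (SE, edgeR adjusted p = 0.0181). *Tfrc*, the transferrin receptor, went from 143, 158 and 158 CPM to 124, 74.6 and 80.8 CPM, a log2 change of -0.72 ± 0.21 (SE, edgeR adjusted p = 0.0338). Both calls were lost with glmTreat (adjusted p = 0.579 and 0.548), and that of *Lamp2* also with library totals as scaling, where its log2 change of 0.5974 fell just below the minimum. Both were also lost without day 5 replicate 1, 2 or 3 and without day 7 replicate 2, where *Lamp2* had edgeR adjusted p of 0.0940, 0.128, 0.109 and 0.0647 and *Tfrc* 0.0987, 0.152, 0.148 and 0.153. *Cd47* measured 0.60 ± 0.21 (SE, edgeR adjusted p = 0.0721), and passed with no low-count filter (edgeR adjusted p = 0.0390) and without day 7 replicate 2 (0.78, edgeR adjusted p = 0.0353).

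Over the 5 related lists together, 51 of 63 genes were tested, of which 5 were higher and 1 lower, beside 12.0% of all genes tested. Their median log2 change was 0.27 (0.25 for those with counts on both days) against -0.0073 for all genes.

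**Figure D5:**
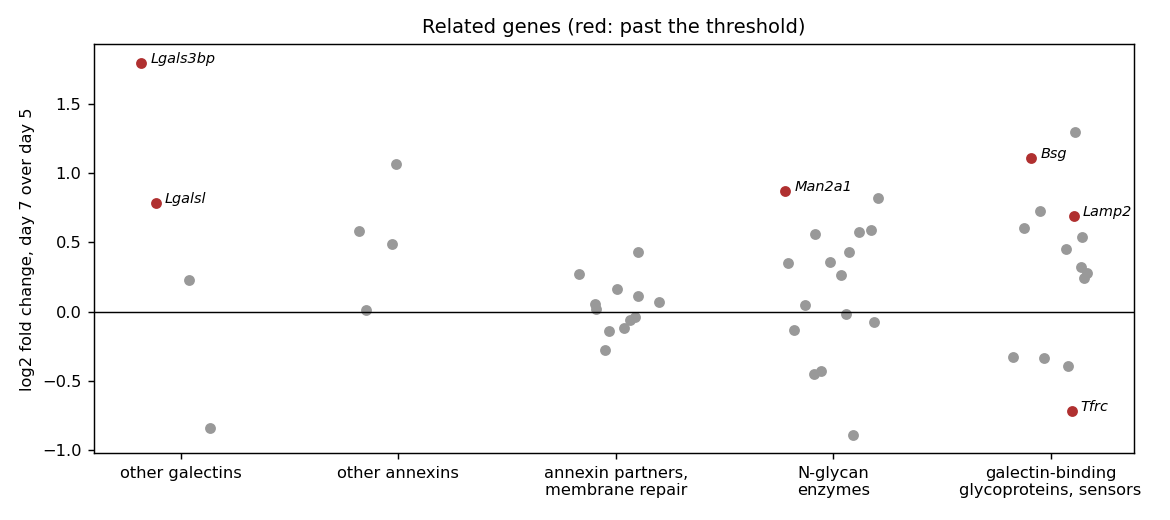
Log2 fold change (vertical axis, day 7 over day 5, edgeR) of the tested genes in the 5 related lists, each point a gene and red points past the threshold, with horizontal scatter only for legibility and *Dysf* left out because it had 0 counts at day 5. The annexin partners lie close to 0, while *Lgals3bp* and *Bsg* stand at 1.80 and 1.11.

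Overlap with other genes could blur the counts of a member. Over the last 500 bases of the gene, no member overlapped an exon of another gene. The last 500 bases of every annotated protein-coding transcript of the members were also compared with other genes. Only *Anxa5* had a match of at least 50 bases, namely 60 bases of *1810062G17Rik* on the opposite strand. Exons of *1810062G17Rik* overlap those of *Anxa5*, but outside the last 500 bases of the gene. Elsewhere, exons overlapped *Gm42603* for *Anxa3* and *Mir7009* for *Anxa5* on the same strand, and *Gm30368*, *Heatr1* and *Gm16144* on the opposite strand for *Lgals1*, *Lgals8* and *Anxa2*. Whether the counting used strand is not given in the sources used here.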

How the data were processed

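Per the labels, polyA RNA of mSGOs entered the Lexogen QuantSeq 3′ protocol, in which transcript ends are read. The deposited files hold whole-number counts per Ensembl gene ID, not normalised, which the authors made after alignment to GRCm39. The aligner, counting tool, annotation release and strand setting are not given in the sources used here. Rows that name no gene entered neither library sizes nor tests. They took 9.12% to 14.4% of the entries per library. GENCODE release M39 matched 43465 of 47643 IDs (91.2%). Genes needed 1 count or more in 2 or more libraries, which left 15792. They were compared by the two-sided quasi-likelihood test of edgeR 4.0.16 (R 4.3.3, TMM scaling, day as the only term), with Benjamini-Hochberg adjustment over all of them. The threshold followed the study's methods: adjusted p under 0.05, and a log2 fold change over 0.6 in size. CPM are counts scaled to 1000000 after TMM correction of the library size. A prior count of 2 was added for correlations. Each SE was derived from the log2 fold change and the F statistic of the edgeR test, and the 95% intervals from that SE.

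Libraries held 1918198 to 2837397 counts in genes, and an observed 0 allows up to 3 counts. This limit covers counting error only. The titles give the mouse of each library, so equal numbers pair the libraries. Their deviations from the day means over 8172 genes correlated at 0.14, -0.10 and 0.16. Libraries of a day all differed by more than sampling noise. The cultures of 3 mice are the replicates.

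Named genes were all members, all genes of the 2 family lists, up to 4 genes with the smallest p in each other list, and the 3 genes most like *Lgals3* and *Anxa2*. Markers of other cells were summed per library. Members and lists were chosen with earlier results of these data known. The alternatives were size factors of DESeq2 1.42.0, the upper quartile or library totals as scaling, the DESeq2 Wald test, limma 3.58.1 voom, no filter, filterByExpr, the mouse as replicate block, no minimum fold change, glmTreat (a test against the minimum fold change) and each library left out. The fit was also run on simulated counts with the same spread on both days. The libraries spread more at day 7, so that run cannot speak for calls under unequal spread.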

Additional observations from a re-analysis of the deposited data

How the results depend on the processing

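Of the members, *Lgals7* kept its direction and its call in all 16 alternatives, and the other 2 calls were lost in 9 alternatives each. The count of members past the threshold, 3 at first, was 1 with library totals only, 1 with limma voom and 1 with glmTreat. It was 2 with upper-quartile scaling, 2 with the DESeq2 Wald test, 2 with filterByExpr and 1 to 3 with a library left out. Among the fits with a library left out, the one without day 7 replicate 1 gave 2 higher members and *Lgals3* as the lower one. The count over all genes, 1901, was 622 with glmTreat and 797 to 2576 with a library left out (leave-one-out), and library totals split it into 950 higher and 1008 lower instead of 1140 and 761. The related lists, with 6 genes past the threshold, had 2 with glmTreat and 2 to 11 with a library left out. With the mouse as a replicate block, members past the threshold stayed at 3, the related lists had 7 and all genes 2340, and *Mgat4a* was the named gene whose call changed. The median log2 change of all genes was -0.0073 at first and lay furthest from it with library totals, at -0.097.

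Of 489 fits of the 31 named genes, 432 kept direction and call, 37 lost and 9 gained the call, and 11 reversed, all in genes not past the threshold. *Anxa7* was -0.071 with library totals, -0.025 with upper-quartile scaling, -0.0012 with voom and -0.014 with the replicate block. *S100a10* was -0.022 with library totals. With a library left out, *Anxa7* ranged from -0.21 to 0.20, *Lgals4* from -0.33 to 0.50, *Anxa1* from -0.15 to 0.92, *Anxa5* from -0.0023 to 0.24 and *Anxa8* from -0.11 to 0.33. The cause of these changes was not tested beyond the smaller number of libraries. At this depth, genes of a few counts such as *Lgals9*, *Lgals4* and *Lgals12* could show only large differences, and 3 mice per day limit all p-values.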

Other observations

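*Anxa11* and *Calcoco2*, the latter from the list with sensors of lysosome damage, were listed at 0 in all 6 libraries. The last 500 bases of *Anxa11* overlap exons of *Plac9* on the opposite strand. The part of this overlap in the 0 counts was not tested.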
